A study of Rattus norvegicus with 10 samples.

Results

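The regions described here are 7 windows of 1 Mb on the rat genome in which the peak list of hypertrophic heart muscle cells held an excess of peaks over the list of quiescent cells. They were chosen by measured values, namely the numbers of peaks found in 1 list only, and their members are all peaks of either list whose summit lies in a window. The members numbered 678 of 133979 peaks, of which 404 of 65539 were hypertrophic and 274 of 68440 quiescent. The windows are named A to G below. Window A lies on chromosome 7 (rn4, 27000001 to 28000000), B on chromosome 1 (193000001 to 194000000), C on chromosome 5 (148000001 to 149000000), D on chromosome 10 (97000001 to 98000000), E on chromosome 10 (106000001 to 107000000), F on chromosome 11 (58000001 to 59000000) and G on chromosome 11 (68000001 to 69000000).

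The series measured N6-methyladenosine (m6A), which is adenosine in RNA that carries an added methyl group, in primary cardiomyocytes of newborn rats by m6A RNA immunoprecipitation and sequencing. Hypertrophic cells were grown in M199 medium with 2% bovine serum, and quiescent cells in the same medium without serum. The 10 libraries form 5 groups of 2, namely m6A immunoprecipitates of hypertrophic and of quiescent cells, input RNA of each, and a negative control precipitated with normal IgG from hypertrophic cells. Each condition has 1 deposited peak list, called against that one IgG control, so the quiescent list too was set against control RNA from hypertrophic cells.

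m6A is written mainly by a complex of METTL3, the catalytic subunit, and METTL14, which helps to bind the RNA. It is removed by the demethylases FTO and ALKBH5 and read by proteins with a YTH domain, which influence the splicing, decay and translation of the marked RNA. In messenger RNA the mark is known to gather near stop codons, in 3′ untranslated regions and in long internal exons, so neighbouring peaks on the genome often fall in the exons of one transcript. METTL3 has been linked to the hypertrophic growth of heart muscle cells.

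A peak is called hypertrophic-only or quiescent-only when no peak of the other list overlaps it by at least 1 bp, and shared otherwise. Each peak has a score, which MACS 1.4 derives from the p-value so that a smaller p gives a higher score, and a summit height, the height of the read pileup at its highest base. Scores started at 50 in both lists, and heights reached 164 in both. Because each condition has 1 list, no value below has a replicate error and no difference was tested. The height of a pileup also follows the amount of RNA, and input libraries were not analysed here, so more m6A and more RNA at a site cannot be told apart. In these bulk cultures, neither can a larger share of cells carrying an RNA and more of it per cell. Genes are not named in the lists, and no annotation of rn4 was used here, so regions are named by position, no sequence is shown, and cardiomyocyte markers were not checked.

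Together the 7 windows held 172 hypertrophic-only and 33 quiescent-only peaks. The hypertrophic-only peaks were 42.6% of the 404 hypertrophic peaks, where the whole hypertrophic list had 25.8%. The quiescent-only peaks were 12% of the 274 quiescent peaks, where the whole quiescent list had 29.0%. These are the counts that chose the windows, so they describe the choice and nothing is read from them. In length, hypertrophic-only peaks covered 59741 bp and quiescent-only peaks 10235 bp. Shared peaks were almost equal in number, at 232 hypertrophic and 241 quiescent peaks.

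The excess was unequal among the windows. Window A had 33 hypertrophic-only and 8 quiescent-only peaks, a difference of 25 that none of the 2727 windows with a peak exceeded. Windows B and G followed, with 26 hypertrophic-only against 3 quiescent-only peaks in B and 29 against 6 in G, each a difference of 23. Window C had 22 against 2, F 26 against 7 and D 22 against 6. Window E had the smallest difference, 13, from 14 hypertrophic-only peaks and 1 quiescent-only peak. The 7 were not all the windows with such differences. Across the genome 37 windows had a difference of 13 or more, and 30 of these are not among the 7. The window on chromosome 8 from 53000001 to 54000000, with 30 against 7, and that on chromosome 20 from 26000001 to 27000000, with 30 against 8, are examples. Most windows of the genome leaned the opposite way. In 1531 windows quiescent-only peaks were more numerous, in 907 hypertrophic-only peaks were, and in 289 the numbers were equal.

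**Figure D1:**
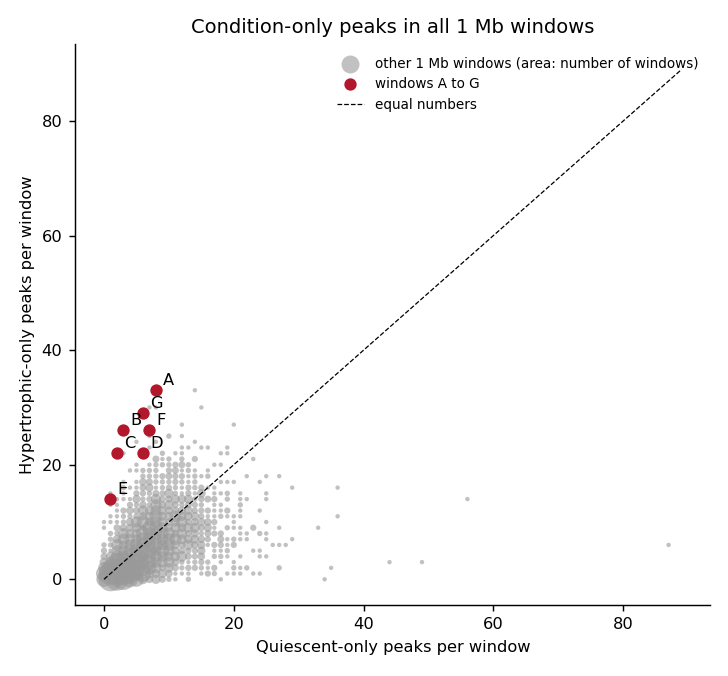
Hypertrophic-only peaks (vertical axis) against quiescent-only peaks (horizontal axis) in each of the 2727 windows of 1 Mb with a peak. Windows A to G (red) lie far above the line of equal numbers, from 14 against 1 in E to 33 against 8 in A, and grey points of similar excess are windows not described here.

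Summed over the neighbouring megabases, both kinds of peak were about equally frequent. The windows directly before the 7 held 75 hypertrophic-only and 73 quiescent-only peaks in all, and those directly after held 59 and 68. Beside A, 7 hypertrophic-only and 5 quiescent-only peaks lay in the window before it, and 3 and 11 in the window after it. Around B the counts were 6 hypertrophic-only against 4 quiescent-only peaks before it and 12 against 13 after it. Around G, in a region rich in peaks, they were 17 hypertrophic-only against 20 quiescent-only peaks and 13 against 10. Inside the windows, hypertrophic-only peaks were not spread evenly. In A, 11 of the 33 lay in a single 100 kb bin, from 27600001 to 27700000, beside 4 shared sites. In G, 10 of the 29 lay in the bin from 68200001 to 68300000, also beside 4. The fullest bins of D and E held 7 and 4 hypertrophic-only peaks, each beside 8 shared sites. These bins were picked as the fullest of their windows, so nothing is read from their counts. In B all 26 lay within 565028 bp, from 193194418 to 193759445, while in the other 6 windows they were spread over at least 870941 bp.

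**Figure D2:**
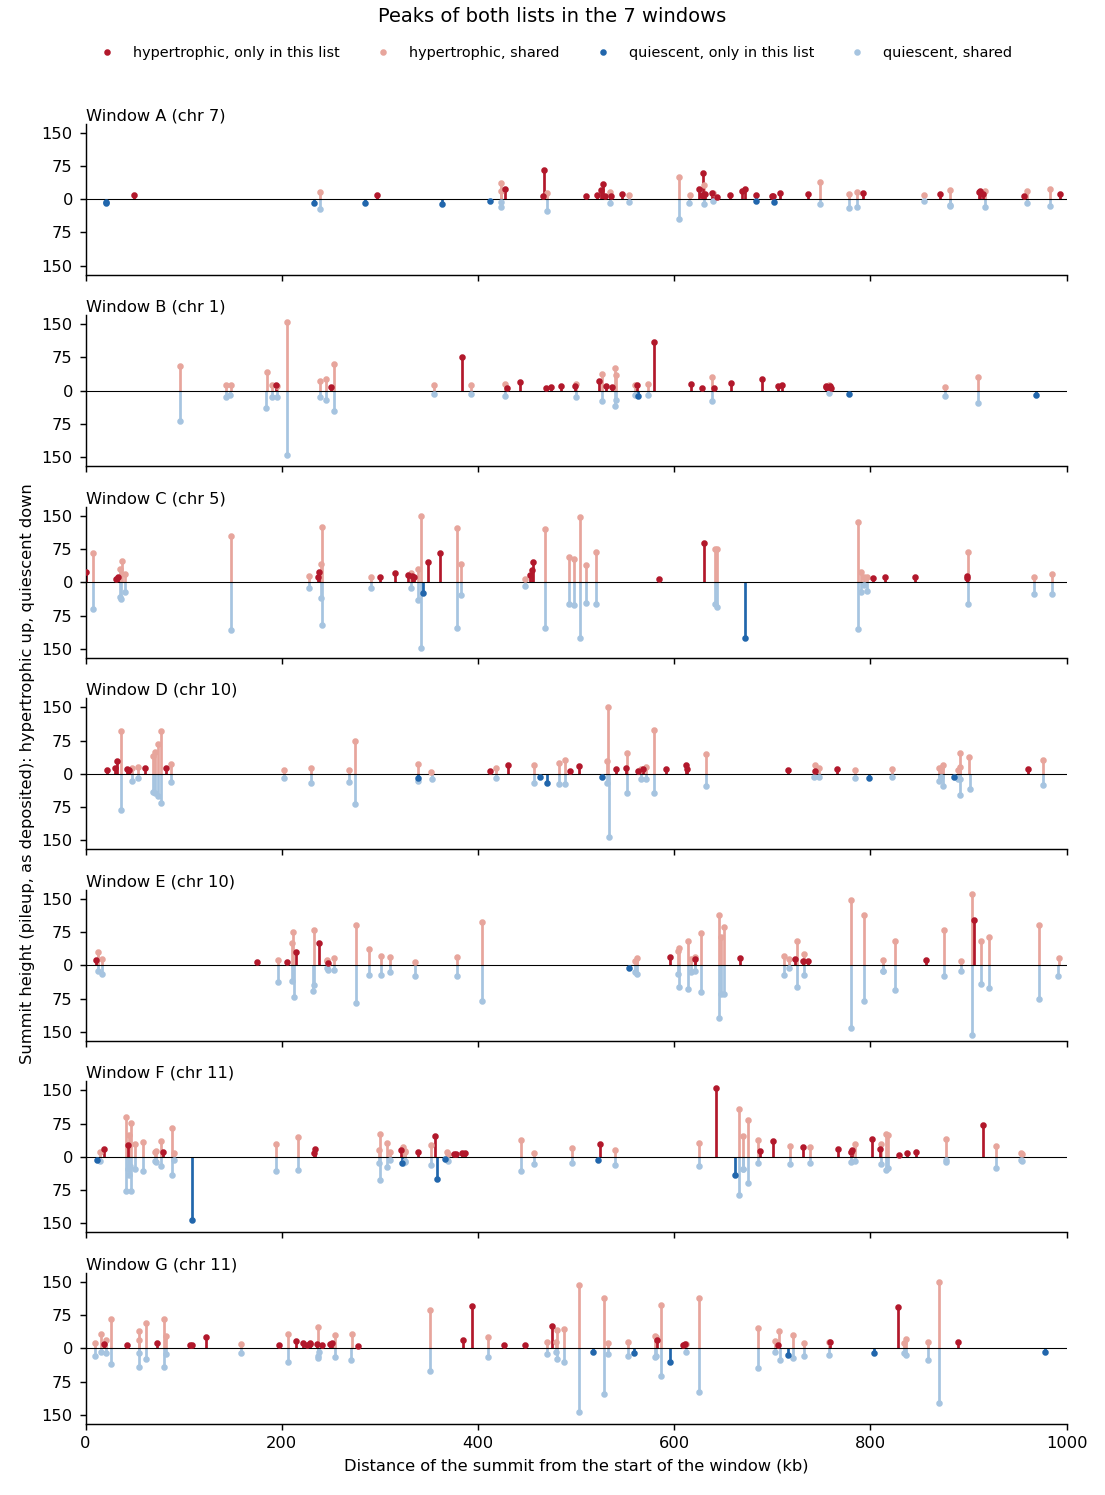
Each vertical line is a peak, placed by the distance of its summit from the start of its window (kb), with its length giving the summit height, upward for hypertrophic and downward for quiescent peaks. Dark colours are peaks of 1 list only and pale colours shared peaks, and outside window E the hypertrophic-only peaks stand mostly in low groups between shared sites that have peaks both ways.

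A run was defined as at least 2 hypertrophic-only peaks in a row along the chromosome with no shared or quiescent peak between them. Of the 172 hypertrophic-only peaks, 56 stood alone and 116 were in 41 runs, 2 of which reach beyond a window's edge. Of these runs, 20 were of 3 or more peaks and 5 were of 5 or more. Runs of 3 or more held 75 of the 172 peaks, or 43.6%, where the whole list had 17.7%. Runs of 5 or more held 30 peaks, or 17.4%, where the whole list had 3.40%. A window with many hypertrophic-only and few quiescent-only peaks is more apt to hold long runs, although shared peaks end runs too. These shares thus follow at least in part from the choice of the windows, and nothing is read from them. Of the 33 quiescent-only peaks, 24 stood alone and 9 were in 5 runs of 2, one of which has its other member before window F. None was in a run of 3 or more, where the whole quiescent list had 24.4%. Windows chosen for few quiescent-only peaks leave little room for such runs, so nothing is read from their absence.

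The windows differed in how their peaks were arranged. In B, 14 of 26 hypertrophic-only peaks were in runs of 5 or more, and in A 21 of 33 were in runs of 3 or more. In C, 21 of 22 had a neighbour of their own kind, mostly in pairs and groups of 3. D and F were mixed, with 10 of 22 and 11 of 26 standing alone. In E, 13 of 14 stood alone, so that this window had an excess without runs.

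**Figure D3:**
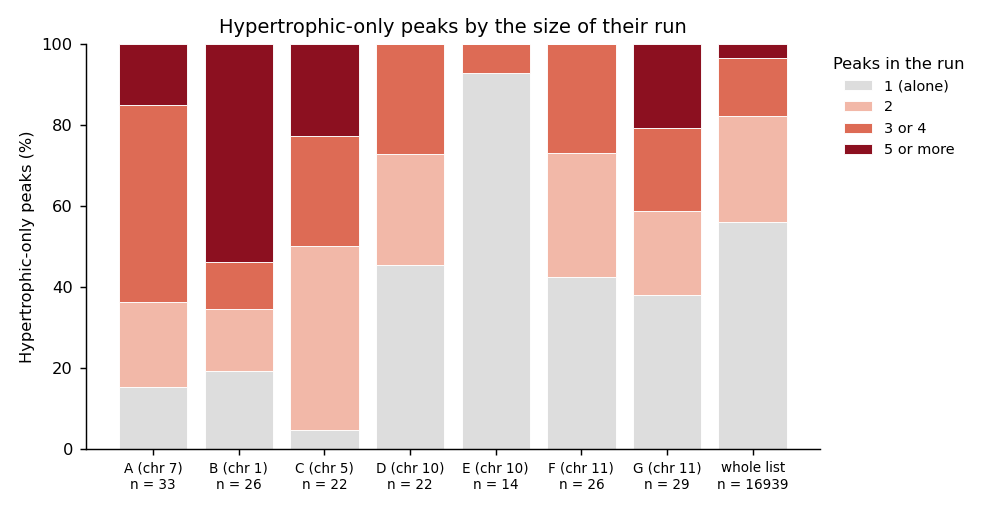
Share of hypertrophic-only peaks (%) by the number of peaks in their run, for windows A to G and, at the right, the whole hypertrophic list. Runs of 5 or more (darkest) take 53.8% in B and 3.40% in the whole list, while 92.9% of the peaks in E stood alone.

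The longest run of any window was in B and had 8 peaks, from 193640546 to 193757113, over 116568 bp. Its scores in map order were 52.3, 224, 219, 52.5, 159, 99.9, 294 and 54.7. Its summit heights in the same order were 6, 18, 27, 11, 14, 9, 11 and 8. Peaks scoring over 200 thus stood among peaks just above the floor of 50. The tallest, 193689773 to 193689957, lay 51198 bp from the nearest quiescent peak, while the highest-scoring, 193754892 to 193755638, lay 1995 bp from one. The run began 1971 bp after a shared site and ended 56 bp before another, from 193757170 to 193758327. That shared site had the largest height ratio of B, with a height of 13 and a score of 479 in the hypertrophic list against 6 and 63.4 in the quiescent list. The run's members were not evenly spaced, since 3 of them lay within its last 3 kb and the widest step was 45058 bp. When a gap over 20 kb also ended a run, this run broke into shorter ones. The longest run of B then had 4 peaks and was part of the run of 6 described next. In the whole hypertrophic list only 9 runs had 8 or more peaks, and the longest had 11.

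A second long run of B had 6 peaks, from 193429579 to 193498686, over 69108 bp. None of its scores reached 100: they were 51.3, 79.2, 53.9, 76.1, 72.6 and 94.6. Heights were 7, 20, 7, 8, 10 and 11, so this run was made of low peaks throughout. Between the long runs lay the tallest hypertrophic-only peak of B, 193578523 to 193579198, with a height of 111 and a score of 195. The quiescent-only peaks of B were few and low, with a highest score of 75.2 and heights of 11, 8 and 10. One of them, 193562665 to 193562989, lay 1 bp from the hypertrophic-only peak 193562283 to 193562663, so that this pair counted as 1 peak of each kind by the narrowest margin.

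Window A had the most hypertrophic-only peaks in a 100 kb bin, 11, and the highest hypertrophic-only score. Its longest run had 5 peaks within 19322 bp, from 27509892 to 27529213. The scores were 54.4, just over 100, 199.9, 61.9 and 83.3, and the heights 8, 10, 21, 34 and 7. The highest score and the greatest height thus belonged to neighbouring peaks, 27525254 to 27525449 and 27526803 to 27527240. On the left the nearest peak was 39537 bp away, and on the right a shared site began 5125 bp after the run. A run of 4, from 27643050 to 27672538, held scores of 53.8, 78.6, 285 and 277, and was closed by a quiescent-only peak 10363 bp further on. A run of 3, from 27910281 to 27914768, held the highest hypertrophic-only score of all 7 windows, 378 at 27911416 to 27912053, with a height of only 18. The tallest hypertrophic-only peak of A, 27467547 to 27467961, had a height of 65 and a score of 214. The last hypertrophic-only peak of A, 27992847 to 27993054, formed a run of 2 with a peak beyond the window's end, 28015438 to 28015778, with a score of 64.3. Among the 8 quiescent-only peaks of A, the highest score was 151, at 27232758 to 27233146, and heights ran from 5 to 10. In A, 13 of 33 hypertrophic-only peaks, or 39.4%, scored at least 100, where the whole list had 21.5%. Of its 8 quiescent-only peaks 2 did, or 25%, where the whole quiescent list had 30.3%.

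Window C had hypertrophic-only peaks with a median score of 72.1 and a median height of 14.5, against 69.98 and 11 in the whole list. Its longest run had 5 peaks, from 148802891 to 148898974, over 96084 bp, with scores of 77.2, 51.3, 50.8, 68.8 and 53.1 and heights of 10, 11, 11, 10 and 14. All of them were low, and the run stopped 660 bp before a shared site, with heights of 68 and 48 and scores of 1355 and 1028 in the hypertrophic and the quiescent list. When a gap over 20 kb also ended a run, this run broke into shorter ones. The longest runs of C then had 3 peaks and lay elsewhere in the window. The tallest hypertrophic-only peak of C, 148630709 to 148631276, had a height of 89 and a score of 112. A run of 3, from 148452412 to 148456394, stood taller from peak to peak along the chromosome, with heights of 16, 27 and 45 and scores of 73.3, 67.6 and 61.9. No hypertrophic-only peak of C scored above 156. Its quiescent-only peaks included one taller than all hypertrophic-only peaks of C, 148671423 to 148672291, with a height of 125 and a score of 119.9. The first hypertrophic-only peak of C began 168 bp inside the window's edge, at 148000168. It lay 74 bp from a quiescent peak whose summit is outside the window and which is not counted in C.

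Window D had short runs and low scores. Its runs of 3 lay from 97021833 to 97032539, with scores of 55.0, 57.6 and 111 and heights of 9, 12 and 30, and from 97591497 to 97613241, with scores of 66.3, 97.4 and 54.8 and heights of 11, 20 and 11. Only 2 of its 22 hypertrophic-only peaks, or 9.09%, scored at least 100, where the whole list had 21.5%. Scores under 60 were found for 10, or 45.5%, where the whole list had 32.0%. No hypertrophic-only peak of D was taller than 30. The highest hypertrophic-only score of D was 186, at 97060771 to 97061133, and the highest quiescent-only score 166, at 97798154 to 97798662. When only peaks with scores of at least 100 were kept in both lists, the difference of D turned to -3, and that of C was 3. When overlaps were taken on all peaks and only those scoring at least 100 were counted, the difference of D was 1. The other windows were also smaller in difference by that count, with 11 in A, 9 in B, 2 in C, 4 in E, 10 in F and 8 in G, so peaks scoring below 100 made up much of the excess in all 7.

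Window E had no run inside its borders. Its first hypertrophic-only peak, 106010779 to 106011022, was the last of a run of 3 whose other members lay before the window, from 105993654 to 105993935 and from 105999396 to 105999693. The other 13 stood alone among 42 shared sites. The highest score and the greatest height belonged to one peak, 106904540 to 106905783, scoring 208 at a height of 103. It lay 642 bp from a quiescent peak, and next to it was the tallest shared site of E, 106903091 to 106903944, with heights of 162 for hypertrophic and 158 for quiescent cells. The hypertrophic-only peak was 1244 bp wide and stood beside a tall pileup present in both conditions. Of the 14 scores, 7, or 50%, were under 60, where the whole list of hypertrophic-only peaks had 32.0%. The single quiescent-only peak, 106553580 to 106553789, scored 56.1 at a height of 6.

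Window F had its longest run, of 4 peaks, from 58375427 to 58386602, with scores of 54.6, 52.8, 74.9 and 55.7 and heights of 7, 6, 9 and 8. The nearest peak to its left was 5693 bp away and the nearest to its right 57101 bp away. Stronger peaks of F came alone or in pairs. The pair from 58687505 to 58700591 had scores of 193.4 and 209 and heights of 14 and 36, and the pair from 58232577 to 58233832 had scores of 143 and 195 and heights of 9 and 17. The tallest hypertrophic-only peak of all 7 windows, 58642456 to 58644194, had a height of 156 over a width of 1739 bp, with a score of 69.7. A quiescent-only peak of F was of the same kind, 58107348 to 58108294, with a height of 143 and a score of 62.4. Such tall pileups with low scores thus occurred on both sides in F. In F, 11 of 26 hypertrophic-only peaks, or 42.3%, scored at least 100, where the whole list had 21.5%. Of its 7 quiescent-only peaks 1 did, or 14.3%, where the whole quiescent list had 30.3%, but 7 peaks are too few to read from.

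Window G had a run of 6 peaks within 21520 bp, from 68214155 to 68235674. The scores were 137, 58.7, 61.8, 114, 68.5 and 131, and the heights 17, 12, 8, 12, 10 and 9. It ended 584 bp before a shared site with heights of 49 and 22 and scores of 2532 and 577 in hypertrophic and in quiescent cells. A run of 3 followed after that site, from 68241225 to 68251022, with scores of 63.5, 70.4 and 75.3. The highest-scoring hypertrophic-only peak of G, 68122414 to 68122657, scoring 289 at a height of 25, closed another run of 3 and lay 36175 bp from any quiescent peak. The tallest, 68393132 to 68393962, had a height of 95 and a score of 92.4. The tallest of the 6 quiescent-only peaks of G had a height of 31. None of them scored 100, where 30.3% of all quiescent-only peaks did, but 6 peaks are too few to read from. The first of them began at 68517158, so more than the first 500 kb of G held none.

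Many runs were separated only by shared sites. Blocks were therefore also counted, a rule chosen after seeing the data, in which only a quiescent-only peak ends a series of hypertrophic-only peaks. In G, 22 hypertrophic-only peaks formed 1 block, from 68018295 to 68476036, with 15 shared sites inside. No block of the hypertrophic list was larger, but windows chosen for few quiescent-only peaks favour large blocks, so nothing is read from this rank. In A, 19 peaks formed a block from 27427092 to 27672538 around 7 shared sites. The largest blocks of B, C, D and F had 13, 10, 10 and 12 peaks, and that of E had 9, of which 8 lay in the window. The whole hypertrophic list had 7559 blocks with a median of 2 peaks, and 90 of them had 10 or more. The quiescent list had larger blocks elsewhere, of up to 50 quiescent-only peaks.

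Hypertrophic-only peaks of the 7 windows were mostly low and narrow. Their median score was 75.1 (quartiles 57.8 and 110.2), against 69.98 for all hypertrophic-only peaks. Their median height was 12 (quartiles 9 and 18) against 11, and their median width 277 bp against 259 bp. The shared hypertrophic peaks of the same windows were stronger, with a median score of 207, a median height of 26 and a median width of 448 bp. Windows A and F had the highest median scores among hypertrophic-only peaks, 94.1 and 82.5, and D and E the lowest, 64.5 and 65.8.

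A score of at least 100 was reached by 50 of the 172, or 29.1%, where the whole list had 21.5%. A score of at least 200 was reached by 13, or 7.56%, where the whole list had 2.50%, and 6 of these 13 were in A. No quiescent-only peak of the windows scored 200, where 7.86% of all quiescent-only peaks did. The windows were chosen for few quiescent-only peaks and held only 33, so nothing is read from this absence. A height over 40 was found for 17 of the 172, or 9.88%, a share near the 9.38% of the whole list. Just above the floor, 50 of the 172 peaks, or 29.1%, scored under 60, a share near the 32.0% of the whole list. The lowest score was 50.1, at 58828594 to 58828834 in F, and its height of 5 was also the lowest among the 172.

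**Figure D4:**
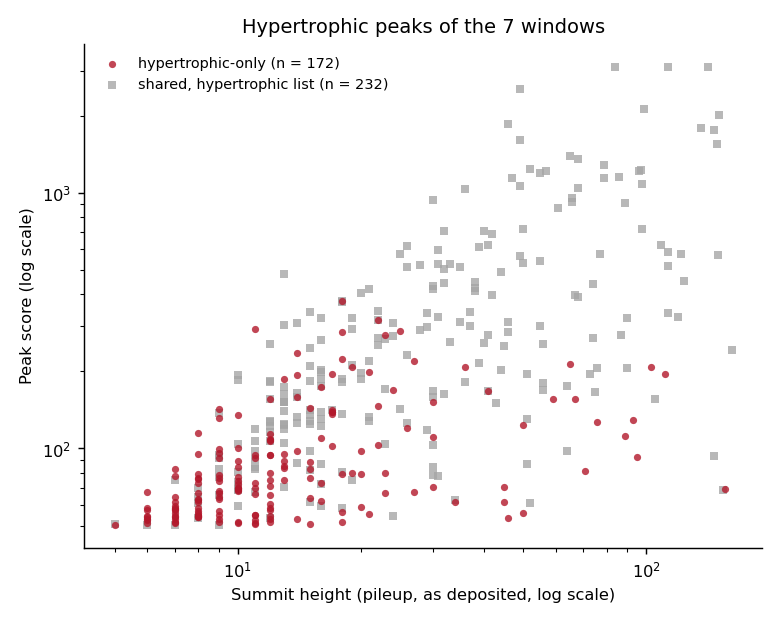
Score (vertical, log scale) against summit height (horizontal, log scale) of the 172 hypertrophic-only peaks and the 232 shared peaks of the hypertrophic list in the 7 windows. Hypertrophic-only peaks crowd at heights of 5 to 30 and scores of 50 to 200, and none scored above 378. The 17 with heights over 40 had low and higher scores, such as 69.7 at a height of 156 and 195 at a height of 111.

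Distances from hypertrophic-only to quiescent peaks were somewhat shorter than in the whole list. Such distances also depend on how densely quiescent peaks lie in a region. Density was not matched between the windows and the whole list, so nothing is read from this difference. The median distance to the nearest quiescent peak was 5668 bp in the 7 windows and 7049 bp in the whole list. Within the windows, 26 of the 172, or 15.1%, lay within 1000 bp of a quiescent peak, a share near the 15.0% of the whole list. At more than 10000 bp lay 58, or 33.7%, where the whole list had 41.1%. The peak farthest from any quiescent peak, at 57282 bp, was 148584267 to 148584481 in C, scoring 54.1 at a height of 8. E had the nearest neighbours, with a median distance of 2913 bp, and F the farthest, with 7834 bp.

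At shared sites, where both lists have a peak, the summits of the windows could be set side by side. These heights were not used to count the members, but they come from the same lists and carry the same contrast as the choice. Windows chosen for hypertrophic-only peaks may favour taller and higher-scoring hypertrophic peaks at shared sites too. The shares and ratios below are thus a description, and nothing is read from their direction. The hypertrophic summit was the taller at 166 of 232 sites, or 71.6%, where all shared sites had 61.8%. The quiescent summit was the taller at 58 sites, and 8 were equal. The median log2 ratio of the heights, hypertrophic over quiescent, was 0.29 in the windows and 0.15 over all shared sites. The hypertrophic summit was at least 2 times as tall at 22 sites, or 9.48%, where all shared sites had 5.57%. Scores leaned the same way over the 7 windows together, with the hypertrophic score higher at 58.2% of their shared sites and at 45.5% of all shared sites. By window this share was 72.2% in A, 71.8% in G, 65.2% in B and 55.8% in F, but 51.4% in D and 50% in C and in E.

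Height ratios varied among the windows. The median log2 ratio was 0.60 in A, 0.45 in G, 0.42 in F and 0.38 in B, but 0.20 in C, 0.19 in D and 0.14 in E, close to that of all sites. In A, 7 of 18 shared sites had a hypertrophic summit at least 2 times as tall. The largest ratio of A was at 27748396 to 27748753, with a height of 38 and a score of 412 in the hypertrophic list against 11 and 86.2 in the quiescent list. A also had sites of the opposite kind, such as that beginning at 27469856, between its runs, with heights of 15 and 27 and scores of 341 and 962 in the hypertrophic and the quiescent list. The largest ratio of all 7 windows was in G, at 68015731 to 68016032, with a hypertrophic height of 32 against a quiescent height of 7 and a log2 ratio of 2.19. In E the largest was at 106875055 to 106875584, with a hypertrophic height of 79 against a quiescent height of 25. In F it was at 58876295 to 58877129, with 41 against 12. In C and D the largest ratios had the opposite sign. In C it was at 148966338 to 148966688, with a hypertrophic height of 13 against a quiescent height of 26, and in D at 97352578 to 97352815, with 5 against 12.

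In B and G the taller hypertrophic summits followed each other along the chromosome. B had 15 consecutive shared sites with the taller summit in the hypertrophic list, from 193205579 to 193758327, with log2 ratios from 0.10 to 1.12, and 23 hypertrophic-only peaks and 1 quiescent-only peak lay in that stretch. G also had 15, from 68054691 to 68488227, with log2 ratios from 0.14 to 1.27, and 20 hypertrophic-only peaks and 0 quiescent-only peaks lay among them. These stretches were picked as the longest of their window, and the windows for their hypertrophic-only peaks, so nothing is read from either count. The longest such stretches of the other windows had 8 sites in E, 7 in A, 7 in F, 6 in C and 5 in D. The tallest shared site of each window was picked by its hypertrophic height, which favours the hypertrophic list. Hypertrophic against quiescent heights were 49 against 44 in A, 154 against 144 in B, 150 against 149 in C, 151 against 143 in D, 162 against 158 in E, 109 against 87 in F, and 149 against 124 in G. The tallest quiescent summit among the shared sites of G was at another site, beginning at 68502933, with 142 against 143. Several of these are near the largest deposited height of 164.

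**Figure D5:**
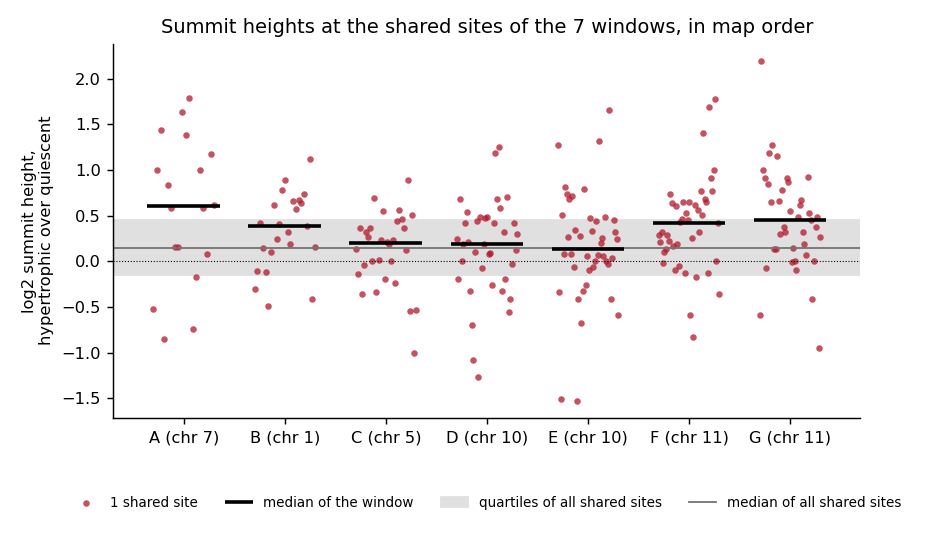
Log2 ratio of summit heights, hypertrophic over quiescent (vertical axis), at each shared site of windows A to G, in map order within a window. Black bars are window medians, from 0.14 in E to 0.60 in A, and the grey line and band give the median (0.15) and quartiles of all shared sites.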

How the data were processed

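Tools listed in the submitters' processing notes are MACS 1.4, TopHat and CASAVA 1.8, with no parameters and with rn4 as the build. The deposited peak files give the authors' score per peak, and the deposited summit files a signal, the pileup height at the summit in whole numbers, with no scaling stated. Whether both immunoprecipitates of a condition were pooled, and the read depth, are not stated in these sources, so the precision of a single peak is unknown. All 4 deposited files were used, and 0 columns of values were left out. Coordinates are rn4, counted from 1.

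From these files, overlaps of at least 1 bp, runs, distances and window counts were computed with Python 3.11.15, numpy 2.4.6 and pandas 2.3.3, and figures with matplotlib 3.10.9. A shared site pairs a hypertrophic peak with the overlapping quiescent peak of nearest summit. The run finder was tested on simulated data, a copy of the hypertrophic list with summits shifted slightly and groups of peaks deleted. Peak edges were unchanged and no quiescent-only peaks were added. Partial overlaps and runs ended by a quiescent-only peak were thus not tested. The windows, members and lists were chosen with earlier results of these data known. Peaks were named by rule: runs of 5 or more and each window's longest run with its first, last, highest-scoring and tallest peaks, the highest-scoring and tallest hypertrophic-only peak, the highest-scoring quiescent-only peak, and the shared sites that were tallest or had the largest height ratio. Others named, among them shorter runs, tall or touching peaks and peaks at window edges, were chosen after their values were seen. Scores of both lists are set side by side on the assumption that their scales are alike, which was not tested.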

Additional observations from a re-analysis of the deposited data

How the results depend on the processing

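The 172 hypertrophic-only peaks became 88 when only scores of at least 100 were kept in both lists, and 50 when the overlap was taken on all peaks and then only peaks scoring at least 100 were counted. The 41 runs became 19 and 10, and the 20 runs of 3 or more became 7 and 3. The median score of hypertrophic-only peaks became 156 and 154, by construction of the bound, and their median height 18 in both, for which the cause was not tested. With the bound in both lists, the difference in window D was -3, and the longest run had 10 peaks in A, 8 in F, 3 in G and 2 in C. Of 49 values of a longest run under all alternatives, the block rule included, 29 were within 1.5 times the reported length. The 33 quiescent-only peaks became 5 when only scores of at least 100 were counted, 53 when shared peaks had to overlap by 50% of both, and 75 when their summits had to lie within 100 bp. Over 5 alternatives, 34 of 35 window differences stayed positive, but 12 of these moved by over 1.5 times, all under the bounds on score. With the bound in both lists they were 12 in B, 3 in C, 8 in E, 12 in F and 9 in G, and with the bound on counted peaks 11 in A, 9 in B, 2 in C, 1 in D, 4 in E, 10 in F and 8 in G. No paired analysis was possible because each condition has 1 deposited list, and for the same reason no replicate could be left out. Read totals are unknown, so a peak missing from a list may have been below its calling threshold.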
